A study of Sus scrofa with 35 samples.

Results

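The aldo-keto reductases described here are 5 genes, AKR1C1, AKR1C4, AKR1A1, AKR1B1 and AKR7A2, taken from the 45222 distinct gene names on a porcine microarray. Every non-control probe whose gene name in the scanner files is one of these symbols was taken, which gave 14 of 60305 probes, and each probe was kept apart. AKR1C1 was picked because its level was low in the F1 cross, so the values of F1 against its parental breeds are given below as a description without a test, for all 5 genes. All 14 probes were well above background on every array and so passed the filter on low values, which kept 41517 probes.

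RNA came from a back muscle, the longissimus dorsi, of castrated males of 3 genetic types: Creole, Large White and their F1 cross (Large White×Creole per the study methods). Pigs were at thermoneutrality (TN, 24 °C in the labels) or under heat stress (HS, 30 °C in the labels, 32 °C in the growth protocol and in the study methods, with 4 or 5 days of exposure per the methods). There were 6 arrays each of Creole TN, F1 TN, Large White TN, Creole HS and Large White HS and 5 of F1 HS, 35 in all, 1 pig per array. Per the methods the pigs of a breed came from a few blocks of littermates and slaughter of TN pigs preceded the warming, so animals of a group were related, and temperature cannot be told apart from slaughter day. Age is not given in the labels.

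Values are log2 of the quantile-normalised spot intensity, so a difference of 1 is a doubling. The 7 skeletal muscle markers measured had a mean log2 level of 16.67 ± 0.17 in TN (SD, n = 18) and of 16.46 ± 0.17 in HS (SD, n = 17), so the markers of the labelled tissue were present. The level of a gene in a bulk sample cannot tell fewer cells of a type from less RNA per cell. The mean of 11 leukocyte markers was 9.20 ± 0.69 on TN and 9.86 ± 0.43 on HS arrays and that of 8 connective tissue markers 12.42 ± 0.32 and 12.67 ± 0.21, and both are taken up again beside the temperature results.

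Aldo-keto reductases are mostly cytosolic enzymes that use NADPH to reduce aldehydes and ketones to alcohols. They clear reactive carbonyl compounds that arise from sugars and from lipid peroxidation, and members of the AKR1C branch also interconvert active and inactive steroid hormones and prostaglandins. Several members are targets of NRF2, the transcription factor of the oxidative stress response. AKR1C genes are close copies of each other and lie side by side in mammalian genomes, so a probe for one can also read another.

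Members of this family have similar transcripts, and the sequences of the probes that the results turn on are printed here as the array files give them. Gene names rest on the names and transcript lists in the files, and the probes were not aligned to the gene copies. Capitals in the first pair mark the 47 bases that A_72_P505297 and A_72_P672532 share, so these 2 AKR1C1 probes read nearly the same stretch of transcript. Capitals in the last pair mark the 18 bases shared by the probes for LOC733634 and LOC733635. The files list the transcripts of both genes for each of these probes, so those 2 genes cannot be told apart. A_72_P440641 lies nearer the 3′ end of the same AKR1C1 transcript, and O8059 and O8060 carry the name of a human transcript in the files, so which porcine copy they read is not given there.
AKR1C1 A_72_P505297: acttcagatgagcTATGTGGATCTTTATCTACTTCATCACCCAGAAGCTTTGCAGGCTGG
AKR1C1 A_72_P672532: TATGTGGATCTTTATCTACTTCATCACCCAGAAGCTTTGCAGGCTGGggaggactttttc
AKR1C1 A_72_P440641: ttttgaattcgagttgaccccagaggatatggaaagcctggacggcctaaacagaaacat
AKR1C1 O8059: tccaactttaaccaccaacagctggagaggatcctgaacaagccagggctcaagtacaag
AKR1C4 A_72_P759584: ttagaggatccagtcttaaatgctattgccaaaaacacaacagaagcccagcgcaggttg
AKR1C4 O8060: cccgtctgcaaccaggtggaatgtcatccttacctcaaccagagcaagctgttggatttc
LOC733634 A_72_P569209: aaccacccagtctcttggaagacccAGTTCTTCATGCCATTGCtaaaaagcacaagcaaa
LOC733635 A_72_P440651: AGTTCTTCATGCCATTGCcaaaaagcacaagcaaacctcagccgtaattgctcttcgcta

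AKR1C1 belongs to the branch that reduces steroids such as progesterone. By probe A_72_P672532, whose F1 value lay farthest below the parents among the 14, AKR1C1 had a lowest, median and highest level of 9.48, 9.89 and 10.33 on the 6 F1 TN arrays. The Creole TN arrays had 10.53, 10.74 and 10.87, and the Large White TN arrays 10.46, 10.67 and 11.20. Every F1 TN array was therefore below every parental TN array. The overlapping probe A_72_P505297 did the same, with 9.46, 9.92 and 10.27 in F1 TN against a lowest parental TN value of 10.36. Of all probes, 0.0169% had F1 TN below every Creole TN and Large White TN array, and since AKR1C1 was chosen on this contrast nothing is read from that share.

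At HS the separation was incomplete. The 5 F1 HS arrays had 9.65, 9.96, 10.09, 10.43 and 10.64 by A_72_P672532. Creole HS ran from 10.26 over a median of 10.63 to 10.86 and Large White HS from 10.43 over 10.75 to 11.28. So 3 of 5 F1 HS arrays were below every parental HS array, and the other 2 lay among the parents. F1 HS below every parental HS array was seen for 0.0193% of all probes and for none of the 14. In order of the group means, F1 TN (9.90) was lowest, followed by F1 HS (10.15), Creole HS (10.60), Creole TN (10.72), Large White TN (10.77) and Large White HS (10.78). The ranges of neighbours in this order overlapped at each step.

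Over both temperatures F1 differed from the midpoint of the parents by -0.70 (SE 0.10, a 1.62-fold lower level) for A_72_P672532. The value was -0.84 (SE 0.12) on TN arrays alone and -0.53 (SE 0.16) on HS arrays alone. Against each parent it was -0.64 (SE 0.12) for Creole and -0.76 (SE 0.12) for Large White. Arrays were read on 5 slides, and on the 4 slides that held F1 arrays F1 minus parents ran from -0.88 to -0.57. Without any 1 array the value ranged from -0.76 to -0.64.

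The other AKR1C1 probes gave smaller values. A_72_P440641 read 9.64, 9.81 and 10.11 in F1 TN, 9.84, 10.38 and 10.87 in Creole TN and 9.97, 10.46 and 11.14 in Large White TN, so the F1 range overlapped both parents, and F1 minus midpoint was -0.50 (SE 0.13). O8059 read 9.81, 10.05 and 10.15 in F1 TN and 9.70 to 10.32 over the parental TN arrays, and its F1 minus midpoint was -0.14 (SE 0.07). Across the 35 arrays A_72_P672532 correlated at r = 0.98 with its overlapping neighbour, at 0.77 with A_72_P440641 and at 0.21 with O8059. O8059 thus ran apart from the 3 probes designed on the porcine AKR1C1 transcript.

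**Figure D1:**
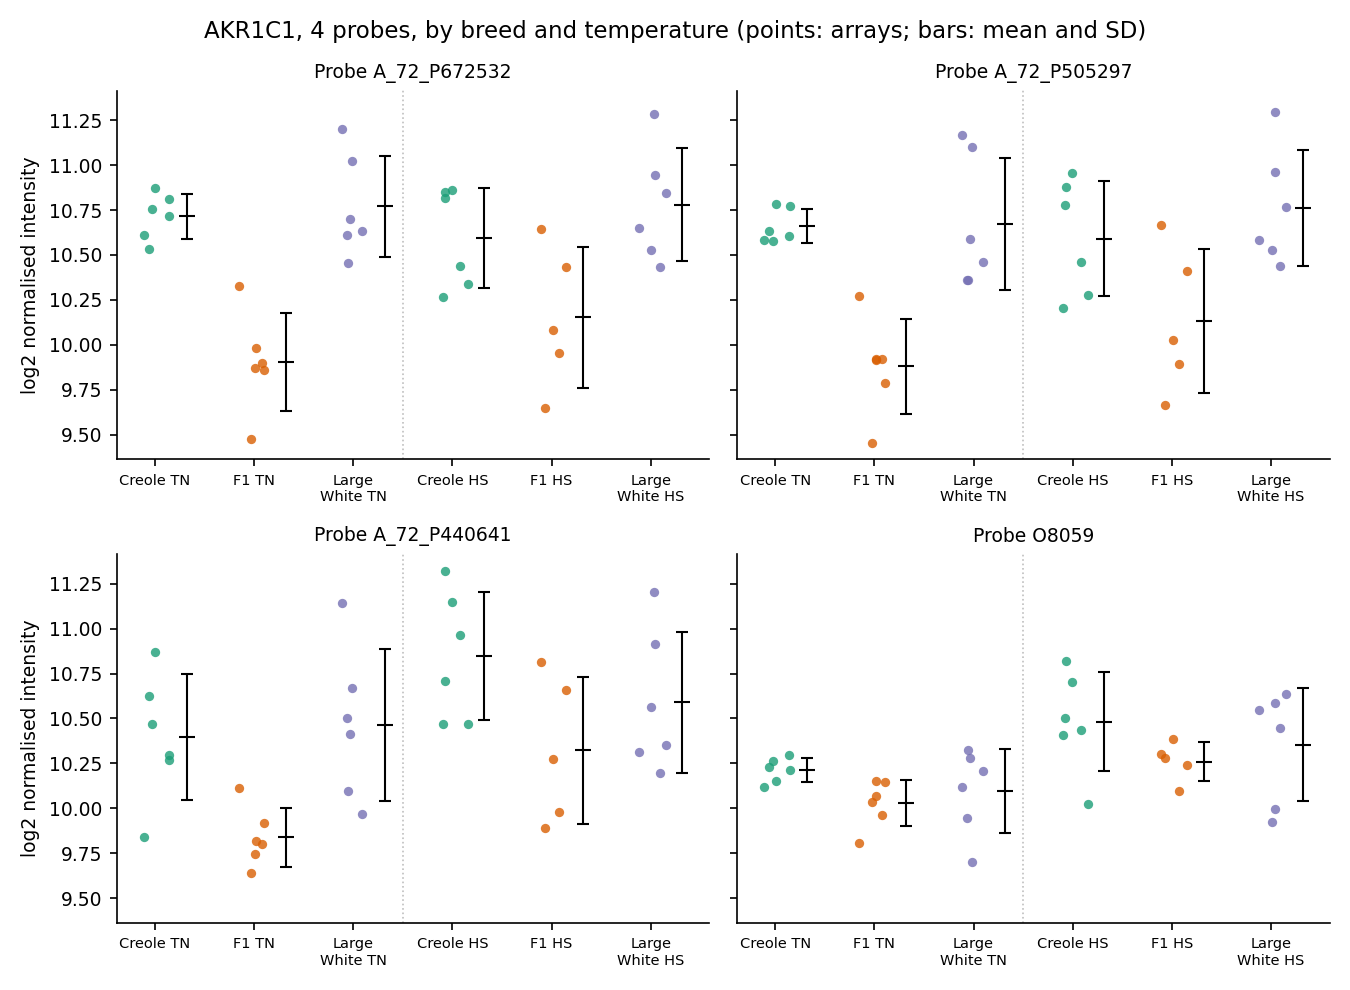
Level of AKR1C1 by each of its 4 probes (y axis, log2 normalised intensity) in the 6 groups of arrays (x axis), with 1 point per array and the mean and SD of the group as a bar. The F1 TN points lie at or below 10.33 for A_72_P672532 while the parental TN points start at 10.46, and O8059 shows no such separation.

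Over both temperatures the other 4 genes lay nearer the parental midpoint than AKR1C1 by the probes designed on its porcine transcript, though not all nearer than O8059. AKR1C4, a liver form of the same branch that acts on steroids and bile acid precursors, had F1 minus midpoint values of -0.22 (SE 0.13) by A_72_P759584 and -0.10 (SE 0.10) by O8060. On HS arrays alone these were -0.40 (SE 0.20) and -0.15 (SE 0.15), where AKR1C1 by A_72_P440641 had -0.39 (SE 0.19). On TN arrays alone A_72_P759584 had -0.06 (SE 0.16). AKR1A1, the general aldehyde reductase, had values from -0.05 to 0.01 over 5 probes (SE 0.12 to 0.14). AKR1B1, the aldose reductase that turns glucose into sorbitol, had 0.07 (SE 0.13). AKR7A2, which reduces succinic semialdehyde and aflatoxin dialdehyde, had -0.10 by both probes (SE 0.08 and 0.07). In none of these 10 probes was every F1 array of a temperature below, or above, every parental array of that temperature. F1 above every parental array was seen for 0.00723% of all probes at TN and 0.0458% at HS.

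In the RefSeq gene table of assembly Sscrofa11.1 the gene read by the 3 porcine AKR1C1 probes stands on chromosome 10 between LOC733635 and AKR1E2, with AKR1CL1 and a second gene called AKR1C1, which the array files name LOC733634, before them. The table gives 1 other entry in this stretch. These neighbours and the other family members on the array were described after their values had been seen. The kept probes named LOC733634, LOC733635 and AKR1E2 went the other way from AKR1C1 in F1. Their levels were low, with parental medians of 6.13 for A_72_P569209 and 6.26 for AKR1E2, against 10.71 for AKR1C1 by A_72_P672532. A_72_P440651 was well above background on 5 of 6 F1 TN, 4 of 5 F1 HS and 5 of 6 Large White HS arrays. A_72_P569209 was so on 5 of 6 Creole HS arrays, and in the other groups each was so on every array.

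By A_72_P569209, named LOC733634, the F1 TN arrays had a lowest, median and highest level of 5.60, 8.07 and 8.35. The F1 HS arrays had 5.84, 6.91, 7.97, 8.16 and 8.53. The 24 parental arrays ran from 5.58 over a median of 6.13 to 8.56. A gap from 6.91 to 7.92 divided the 35 values, with 9 arrays above it: 8 of the 11 F1 arrays, none of the 12 Creole arrays and 1 of the 12 Large White arrays.

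By A_72_P440651, named LOC733635, the gap ran from 6.59 to 8.13, and by the AKR1E2 probe A_72_P078096 from 6.72 to 7.05. The same 9 arrays were above the gap for all 3 probes. They were F1 TN replicates 1, 2, 3, 5 and 6, F1 HS replicates 2, 3 and 4, and Large White TN replicate 3. F1 minus midpoint was 1.40 (SE 0.26) for A_72_P569209, 1.47 (SE 0.33) for A_72_P440651 and 0.66 (SE 0.14) for AKR1E2, which reduces anhydrofructose.

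The 3 F1 arrays below the gap were those with the highest AKR1C1 level in F1. F1 TN replicate 4 had 10.33 for AKR1C1 by A_72_P672532 and 5.60 for LOC733634, F1 HS replicate 1 had 10.43 and 5.84, and F1 HS replicate 5 had 10.64 and 6.91. The 8 F1 arrays above the gap had AKR1C1 levels of 10.09 or lower. Large White TN replicate 3 had 8.56 for LOC733634 with an AKR1C1 level of 10.61, inside the range of its own group. It was the 1 parental array above the gap, and whether its breed label is right was not tested. Without that array F1 minus midpoint was -0.70 for AKR1C1, 1.51 for A_72_P569209, 1.59 for A_72_P440651 and 0.72 for the AKR1E2 probe. Since the 35 values fall into separate clusters, no pooled correlation with AKR1C1 is given for LOC733634 and LOC733635. The 2 neighbours' other 3 probes were not well above background on enough arrays to be kept, among them A_72_P532882 and A_72_P302809, which were above it on none. A_72_P077461, named LOC733634, was above it on 1 F1 TN and 2 F1 HS arrays. In the parents it was above it on 2 Creole TN, 1 Large White TN, 3 Creole HS and 4 Large White HS arrays. The pattern of these 2 neighbours therefore rests on 2 probes that do not tell the genes apart.

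**Figure D2:**
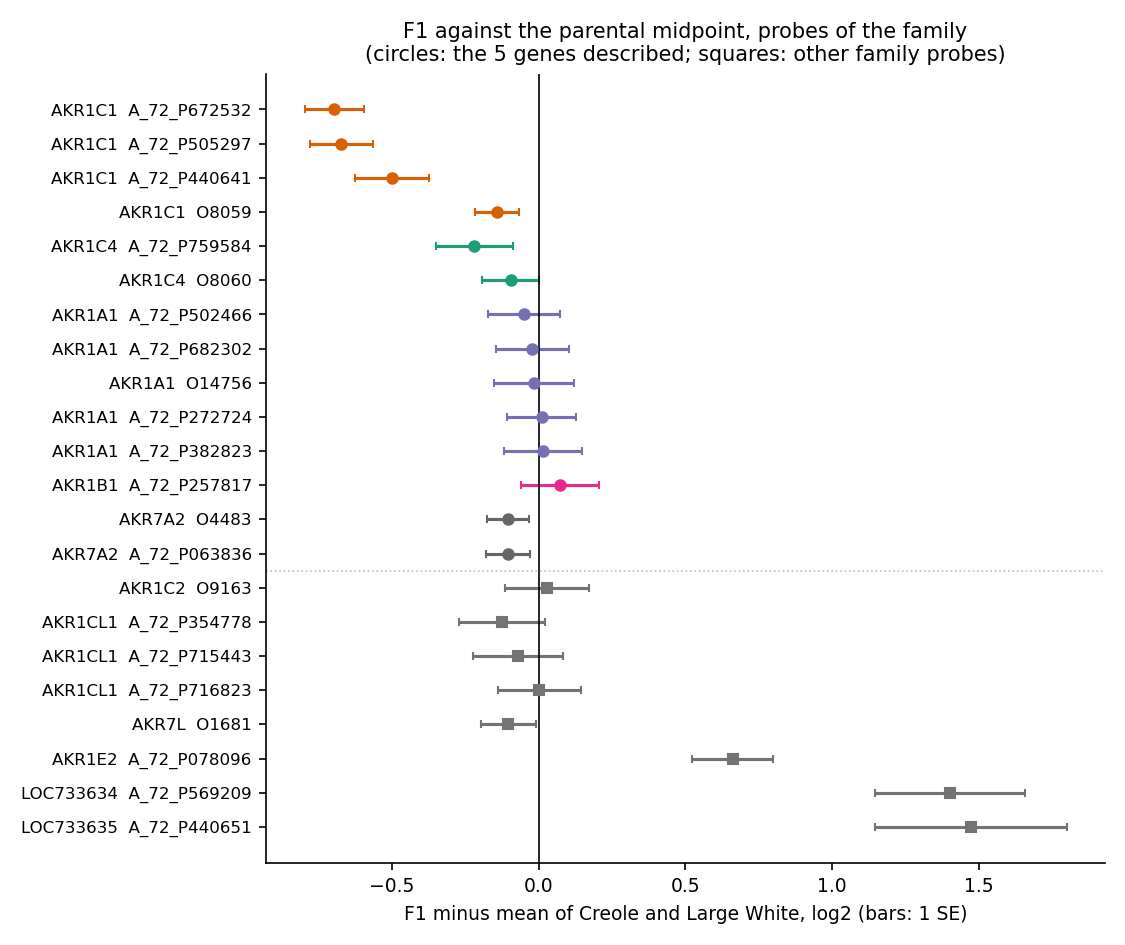
F1 minus the mean of Creole and Large White (x axis, log2, with 1 SE as bars) for the 14 probes of the 5 genes (circles) and 8 of the 9 further kept probes of the family (squares), 1 probe per line. The probe left out is named TAKR and had -0.05 (SE 0.08). The 4 AKR1C1 probes lie between -0.70 and -0.14, and the probes of AKR1E2, LOC733634 and LOC733635 lie between 0.66 and 1.47.

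**Figure D3:**
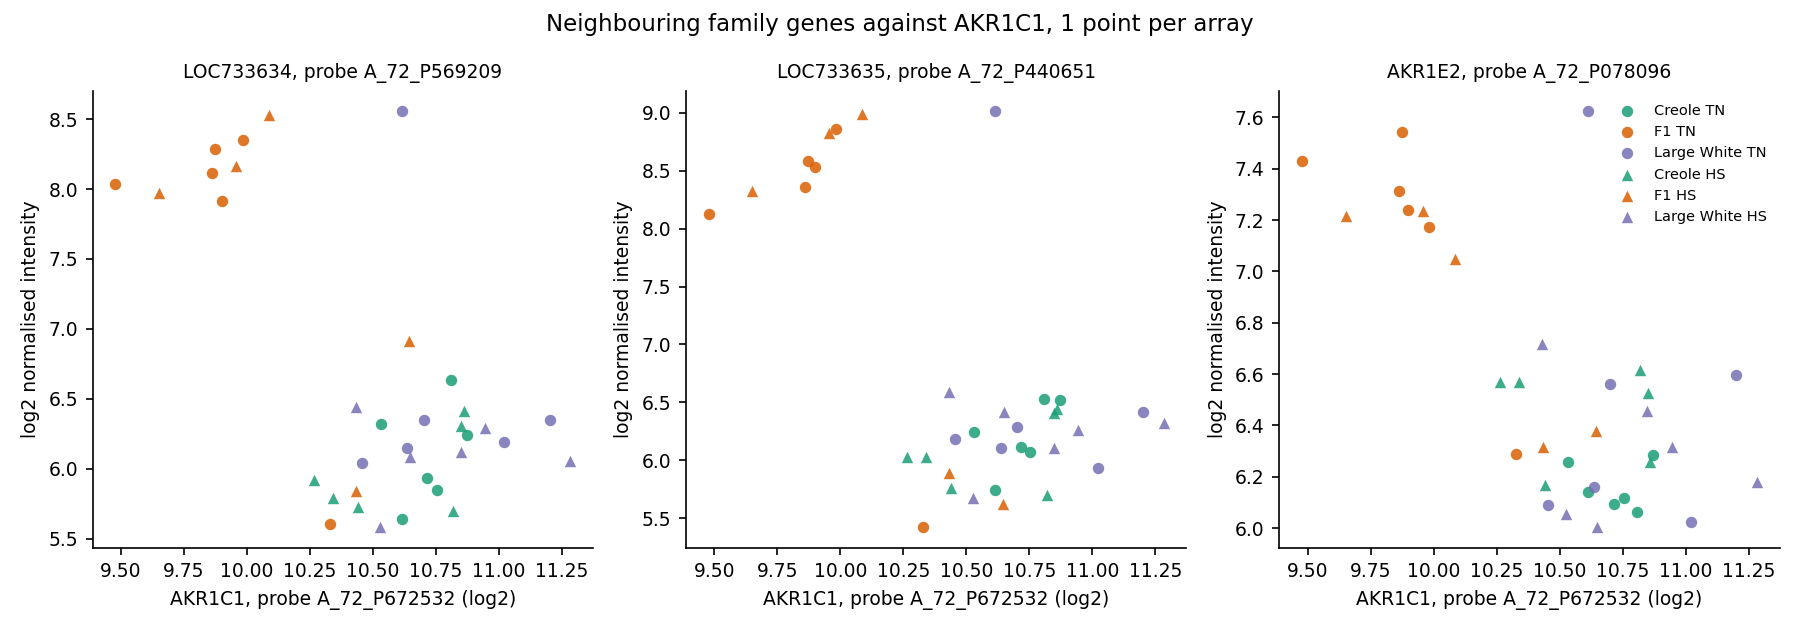
Level of LOC733634, LOC733635 and AKR1E2 (y axes, log2 normalised intensity) against AKR1C1 by A_72_P672532 (x axis, log2 normalised intensity), with 1 point per array coloured by breed and shaped by temperature. In each panel 8 F1 arrays stand at the upper left and 3 F1 arrays lie below the gap at the lower right. Among these 3 the highest for LOC733634, at 6.91, is also the highest of all arrays below the gap. In each panel 1 Large White TN array stands at the top at an AKR1C1 level of 10.61.

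The probes most like A_72_P672532 over the 35 arrays, keeping the best probe of each gene, were for SEC62 (Pearson r = 0.68), PMP2 (0.65), SLC16A1 (0.65), RTN4 (0.65) and TPT1 (0.65). The 3 most opposed were probes for the mitochondrial genes ATP6 (-0.74) and COX3 (-0.74) and for AKR1E2 (-0.71). With the group means removed these values were 0.52, 0.55, 0.52, 0.49 and 0.53, and -0.54, -0.56 and -0.43. Other probes of the same genes gave other values, at r = -0.04 to 0.40 for the 12 of SEC62, 0.58 and 0.65 for the 2 of PMP2, 0.10 to 0.63 for the 7 of SLC16A1, -0.15 to 0.62 for the 16 of RTN4 and 0.14 to 0.62 for the 17 of TPT1. The 8 other ATP6 probes had r of -0.67 to -0.19 and the 13 of COX3 had -0.67 to 0.28, so these r values stand for single probes. The AKR1E2 value rests on the separate clusters of arrays described above. The arrays share slides and littermates, and the r values are descriptions of these 35 arrays.

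Whether heat changed the family was tested with limma over all 35 arrays, with breed and temperature as additive terms, with Benjamini-Hochberg adjustment over the 41517 probes. Of the 14 probes 7 were called at an adjusted p below 0.05, all of them higher in HS, where 16.0% of all probes were called and 7.73% were called higher. By the names in the files the 7 belonged to AKR1C4 (both probes), AKR1C1 (2 of 4), AKR1A1 (2 of 5) and AKR1B1 (its 1 probe). The median HS minus TN difference was 0.30 over the 14 probes and -0.02 over all probes tested, and 12 of the 14 were above 0. Probes of 1 gene are not independent, and the count is a description of the list. Without any 1 array 3 to 9 of them were called.

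Both probes named AKR1C4 rose, and A_72_P759584 had the largest difference of the 14 probes. By A_72_P759584 the Creole TN arrays had a lowest, median and highest level of 9.65, 10.08 and 10.31 and the Creole HS arrays 10.58, 11.003 and 11.32. F1 TN had 9.82, 10.11 and 10.57, and the F1 HS arrays 10.04, 10.44, 10.48, 10.84 and 10.91. Large White TN had 10.02, 10.29 and 11.23 and Large White HS 10.02, 10.95 and 11.44. Every Creole HS array was above every Creole TN array, which 0.932% of all probes also showed, while the F1 and Large White ranges overlapped between temperatures (0.783% and 0.378% of all probes had HS above TN without overlap in these breeds).

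HS minus TN for A_72_P759584 was 0.62 (SE 0.12, 1.53-fold, limma adjusted p = 0.00111), and 15 of 17 HS arrays were above the TN mean of their breed. O8060 gave 0.34 (SE 0.09, limma adjusted p = 0.0114), also with 15 of 17 arrays. Within Creole A_72_P759584 differed by 0.93 (SE 0.20, limma adjusted p = 0.0268), the 1 call among the 14 probes within a breed, where 1.91% of all probes were called and 1.03% called higher. At an unadjusted p below 0.05 there were 8 of the 14 in Creole, against 21.5% of all probes. Within F1 it differed by 0.38 (SE 0.21, limma adjusted p = 0.697) and within Large White by 0.51 (SE 0.20, limma adjusted p = 0.199). In each of these breeds none of the 14 probes and 0.00482% of all probes were called, with 1 of the 14 (F1, against 8.30% of all probes) and 3 of the 14 (Large White, against 16.6%) at an unadjusted p below 0.05. The breed by temperature interaction of this probe was not called (limma adjusted p = 0.963), so a difference between breeds in the response was not shown. The A_72_P759584 entry in the files lists the transcript of AKR1CL1 beside that of AKR1C4, so this value may stand for either gene.

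The 3 probes named AKR1CL1 moved by nearly the same amounts, 0.63 (SE 0.14), 0.63 (SE 0.14) and 0.64 (SE 0.13), with limma adjusted p-values of 0.0021, 0.00323 and 0.00141. For A_72_P354778 and A_72_P715443 the files also list the transcript of AKR1C4. All 3 correlated with A_72_P759584 at r = 0.93 to 0.97, so they are not read as a second gene that rose. The 1 probe named AKR1C2, an enzyme that inactivates dihydrotestosterone, was O9163, which rose by 0.53 (SE 0.13, limma adjusted p = 0.00675). The files list no transcript for O9163. It correlated with the AKR1CL1 probes at r = 0.94 to 0.96, so which copy it reads is not given. In contrast, AKR1E2 differed by -0.08 (SE 0.13, limma adjusted p = 0.729) and AKR7L by 0.04 (SE 0.09, limma adjusted p = 0.816). The probe named TAKR differed by 0.15 (SE 0.07, limma adjusted p = 0.17).

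**Figure D4:**
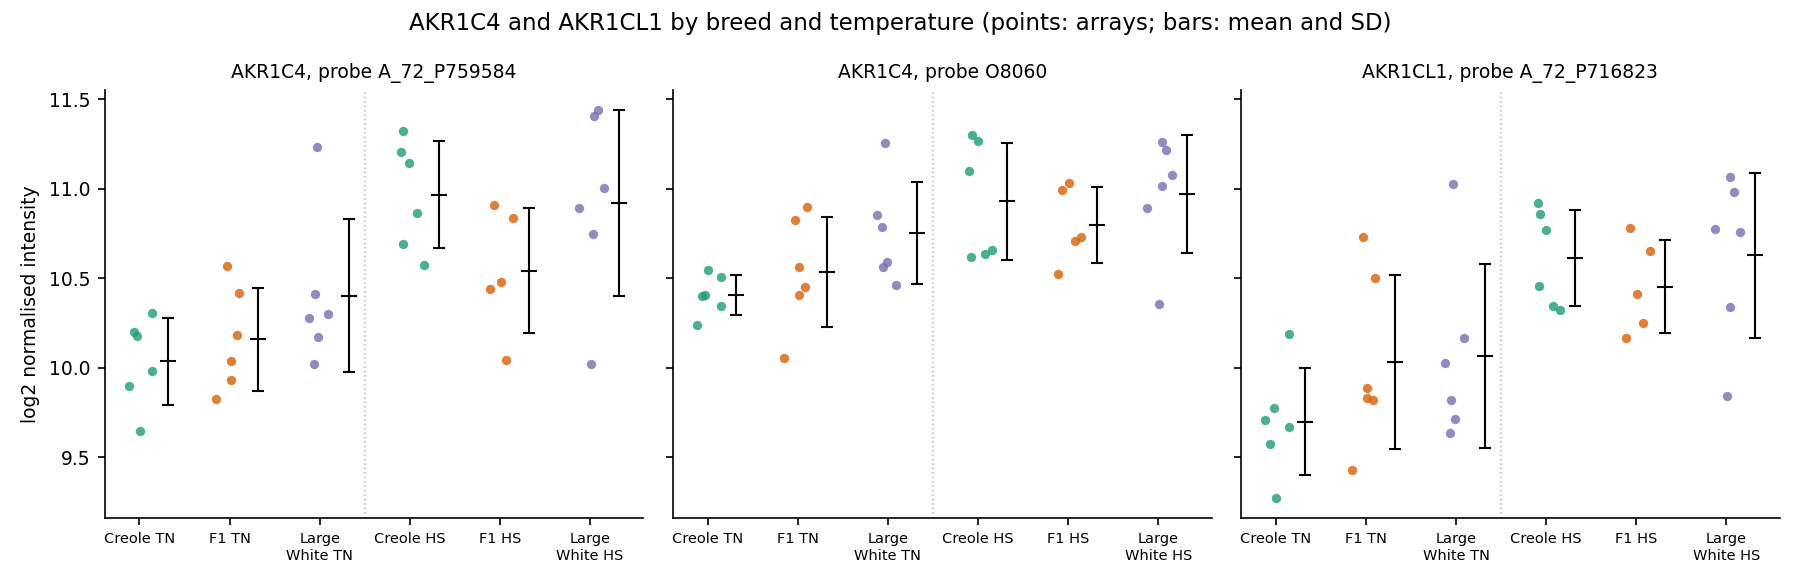
Level of AKR1C4 by 2 probes and of AKR1CL1 by 1 probe (y axis, log2 normalised intensity) in the 6 groups of arrays (x axis), with 1 point per array and the mean and SD of the group as a bar. All 3 panels show Creole HS above Creole TN without overlap, and in each panel 1 Large White TN array lies above the other 5, at 11.23 for A_72_P759584.

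Of the 4 AKR1C1 probes, O8059 and A_72_P440641 were called higher in HS. O8059 had 9.70, 10.15 and 10.32 as the lowest, median and highest of 18 TN arrays and 9.92, 10.41 and 10.82 of 17 HS arrays, a difference of 0.25 (SE 0.07, limma adjusted p = 0.0121, above the TN mean of the breed on 14 of 17 HS arrays). A_72_P440641 had 9.64, 10.19 and 11.14 in TN and 9.89, 10.56 and 11.32 in HS, a difference of 0.35 (SE 0.12, limma adjusted p = 0.0375, 14 of 17). The ranges overlapped in both. The overlapping probes A_72_P505297 and A_72_P672532 differed by 0.09 (SE 0.10, limma adjusted p = 0.603) and 0.04 (SE 0.09, limma adjusted p = 0.818). The 4 probes of this name therefore did not give 1 answer on temperature, nor on F1. O8059 followed the AKR1C4 probe A_72_P759584 (r = 0.72, and 0.65 with the group means removed) more closely than A_72_P672532 (r = 0.21). Which porcine copy O8059 reads was not tested.

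AKR1A1 was called by O14756, with 12.65, 13.33 and 14.24 in TN and 13.21, 13.70 and 14.60 in HS, a difference of 0.39 (SE 0.13, limma adjusted p = 0.034, 15 of 17 HS arrays), and by A_72_P382823, with 11.40, 12.08 and 12.87 and 11.70, 12.41 and 13.19, a difference of 0.36 (SE 0.12, limma adjusted p = 0.0431, 14 of 17). Its other 3 probes differed by 0.27 to 0.32 with limma adjusted p-values of 0.0539 to 0.105. The 5 probes correlated with each other at r = 0.87 to 0.96 over the 35 arrays, so they read 1 pattern that lay near the threshold. A_72_P382823 and A_72_P682302 share 45 bases.

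AKR1B1 had 13.75, 14.31 and 15.12 in TN and 13.98, 14.64 and 15.59 in HS, a difference of 0.35 (SE 0.12, limma adjusted p = 0.0481, 13 of 17 HS arrays above the TN mean of their breed). AKR1B1 was above 0 within all 5 slides, from 0.12 to 0.83. Slide 5 held only 1 Creole HS and 2 Large White TN arrays, so breed and temperature cannot be told apart there. AKR7A2 did not share the direction. A_72_P063836 had 9.29, 9.91 and 10.24 in TN and 9.33, 9.71 and 9.96 in HS, a difference of -0.17 (SE 0.07, limma adjusted p = 0.0903, with 2 of 17 HS arrays above the TN mean), and O4483 differed by -0.04 (SE 0.07, limma adjusted p = 0.705). A_72_P063836 was called lower with slide as a fixed block (-0.17, limma adjusted p = 0.0345). Within slides the called probes of AKR1C1, AKR1C4 and AKR1A1 were above 0 on 4 of 5, with the same limit for slide 5.

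**Figure D5:**
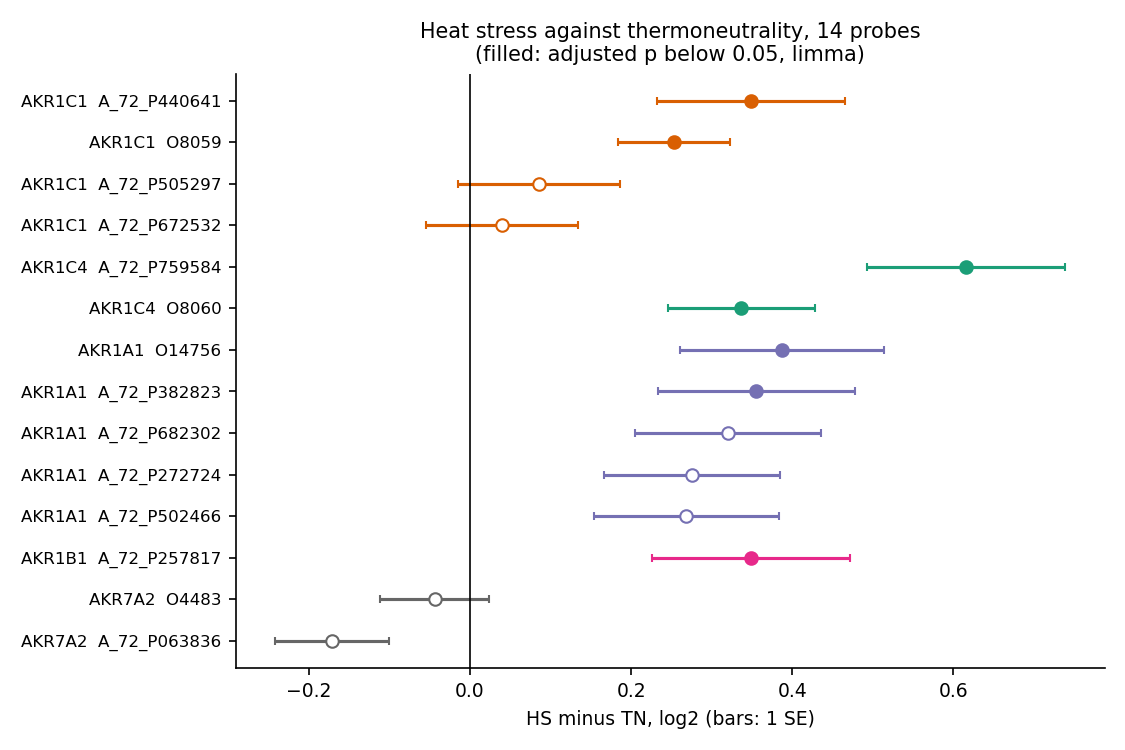
HS minus TN (x axis, log2, with 1 SE as bars) for the 14 probes (y axis, grouped by gene), where filled points had an adjusted p below 0.05. The 7 filled points lie between 0.25 and 0.62, and both AKR7A2 points lie below 0.

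Leukocyte and connective tissue markers moved with temperature. Of 11 leukocyte markers 5 were called higher and none lower in HS, with a median difference of 0.70, where 7.73% of all probes were called higher. Their mean ran from 7.78 to 10.34 on TN arrays and from 9.10 to 10.62 on HS arrays. CD163, CD68, CD3E, CD8A, CD14 and PTPRC were not called, and PTPRC differed by -0.02 (SE 0.07, limma adjusted p = 0.906). The smallest p in the list were those of LYZ and CSF1R. LYZ, the lysozyme of macrophages and granulocytes, went from 10.35 ± 1.99 (SD, n = 18) to 12.59 ± 0.93 (SD, n = 17), and the macrophage receptor CSF1R from 7.51 ± 0.81 to 8.43 ± 0.48, and both probes had passed the filter on low values. Of 8 connective tissue markers 3 were called higher and none lower, with a median difference of 0.29 and means of 11.37 to 12.81 on TN and 12.36 to 12.98 on HS arrays. Of 7 skeletal muscle markers 1 was called higher and 2 lower, with a median difference of -0.35, where 16.0% of all probes were called.

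The 5 AKR1A1 probes followed the leukocyte mean across the arrays at r = 0.88 to 0.92, AKR1C2 at 0.77, AKR1C4 at 0.68 and 0.58, AKR1B1 at 0.34 and the 4 AKR1C1 probes at -0.26 to 0.37. With the leukocyte mean as a covariate the 5 AKR1A1 differences were -0.10 to -0.02 and none was called, while AKR1C4 by A_72_P759584 had 0.36 (SE 0.12, limma adjusted p = 0.067). Of the 7 calls 1 was still made, AKR1C1 by A_72_P440641 at 0.55 (SE 0.12, limma adjusted p = 0.0093), and 1 other was made, AKR7A2 by A_72_P063836, which was lower in HS (-0.26, limma adjusted p = 0.0436). In that fit 5.01% of all probes were called, against 16.0% without the covariate. Array brightness, the 75th percentile of the unnormalised log2 intensity, was 9.05 ± 0.17 in TN and 9.24 ± 0.24 in HS, and with it as a covariate 2 of the 7 were called (A_72_P759584 and O8059) and 5.04% of all probes. The cell types that carried these transcripts were not tested. AKR1C1 in F1 against the midpoint was -0.66 when adjusted for the leukocyte markers and -0.71 when adjusted for brightness. The mean of 7 adipocyte markers was 9.98 ± 0.40 in F1 (SD, n = 11) and 10.27 ± 0.25 in the parents (SD, n = 24). No fit adjusted for the adipocyte markers, and their link to AKR1C1 was not tested.

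Creole and Large White, the parental breeds, were compared in the same model. None of the 14 probes was called, where 3.64% of all probes were. The lowest limma adjusted p was 0.228, and 1 of 14 had an unadjusted p below 0.05, against 15.4% of all probes. That probe was A_72_P502466 of AKR1A1, at -0.33 (SE 0.14, lower in Creole). AKR1C1 by A_72_P672532 had 10.26, 10.73 and 10.87 on the 12 Creole arrays and 10.43, 10.68 and 11.28 on the 12 Large White arrays, a Creole minus Large White difference of -0.12 (SE 0.11, limma adjusted p = 0.70). These ranges overlapped.

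Breed by temperature interactions were tested with a moderated F-test in a model with 1 mean per group. None of the 14 probes was called (limma adjusted p = 0.963 to 0.996) and none had an unadjusted p below 0.05, where 0 of all probes were called and 3.84% had such a p. For AKR1C1 by A_72_P672532 HS minus TN was -0.12 (SE 0.16) in Creole, 0.25 (SE 0.17) in F1 and 0.01 (SE 0.16) in Large White. The interaction of this probe had a limma adjusted p of 0.963.

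Among the genes around the family, counted by 1 probe per gene for HS against TN, 2 of 7 measured members of other aldo-keto reductase genes were called, both higher (AKR1CL1 and AKR1C2). Their probes correlated at r = 0.94, so they may not be 2 separate readings. Of all probes 16.0% were called and 7.73% were called higher. Of 23 carbonyl-metabolising enzymes 2 were higher and 2 lower, with a median of -0.01, against the same 16.0% of all probes. The lists were not tested as sets. ADH5, the formaldehyde and S-nitrosoglutathione dehydrogenase, rose by 0.22 (SE 0.05, limma adjusted p = 0.00231), and the carbonyl reductase CBR3 by 0.56 (SE 0.15, limma adjusted p = 0.011). The glyoxalases, which detoxify methylglyoxal, fell, GLO1 by 0.23 (SE 0.07, limma adjusted p = 0.0266) and HAGH by 0.29 (SE 0.09, limma adjusted p = 0.0325).

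Of 22 NRF2 targets 4 were higher and 2 lower, with a median of 0.05, where 16.0% of all probes were called and 7.73% were called higher. The ferritin chains FTL and FTH1, which store iron, rose by 0.64 (SE 0.18, limma adjusted p = 0.0128) and 0.19 (SE 0.06, limma adjusted p = 0.0228), biliverdin reductase BLVRB rose by 0.42 (SE 0.14, limma adjusted p = 0.0339), and the efflux pump ABCC1 fell by 0.56 (SE 0.12, limma adjusted p = 0.00221). Of 24 genes of steroid and prostaglandin metabolism and signalling none was higher and 3 were lower. Of all 41517 probes 16.0% were called in either direction, and 3445 were called lower. Among the 3 were the prostaglandin E synthase PTGES2 at -0.42 (SE 0.09, limma adjusted p = 0.00134) and the oestrogen receptor ESR1 at -0.46 (SE 0.10, limma adjusted p = 0.0017).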

How the data were processed

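Per the labels and methods, the authors hybridised Cy3-labelled cRNA to 1-colour Agilent porcine arrays, and per the file headers the spots were read with Feature Extraction 10.10.1.1. The deposited scanner files hold linear intensity values for each spot, and the deposited value table holds the authors' log2 values of 40649 probes after quantile normalisation and a filter. Here the median pixel intensity was quantile-normalised over the 35 arrays without background subtraction, log2 was taken, outlier spots (105) were left out and spots of 1 probe were averaged. Saturation affected 0 spots. Probes well above background on 75% of the arrays of at least 1 group were kept.

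limma 3.58.1 in R 4.3.3 was fitted to all arrays (breed plus temperature, or 1 mean per group for within-breed differences and the interaction), with adjusted p below 0.05 as the threshold. Pen, slaughter day and parents, which the methods model as random terms, could not be used, since the labels do not give them.

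All probes of the 5 genes are named. From each of 4 lists of related genes at most 4 genes were named, by the smallest p for temperature, using each gene's probe with the highest mean, 1 of which is not reported here, and likeness to AKR1C1 named the 5 highest and 3 lowest genes by r. The members and lists were chosen with earlier results of these data known. Alternatives covered scaling, background, filter, slide, array brightness, marker means, array weights and leaving out each array. The number of arrays limits the precision.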

Additional observations from a re-analysis of the deposited data

Results flagged for a closer look

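Of 84 groups of arrays, 14 probes in 6 groups, 3 held 1 array far from the others by Dixon's ratio (the gap to the nearest array over the whole range). Chance gives about 1 in 20, here 4.2. For AKR1C4 by A_72_P759584, Large White TN replicate 6 was highest at 11.23, with the next array at 10.41 and a ratio of 0.675. For AKR7A2 by A_72_P063836, Creole TN replicate 5 was lowest at 9.29, with the next at 9.96 and a ratio of 0.798. For the same probe Large White TN replicate 1 was highest at 10.24, with the next at 9.95 and a ratio of 0.662.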

How the results depend on the processing

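The 7 probes called for HS against TN were 2 to 10 under 12 alternatives, namely 4 without the filter on low values (9.67% of all probes called, against 16.0%), and 2 each with array brightness (5.04%), the leukocyte mean (5.01%) or the connective tissue mean (3.39%) as a covariate, the last added after the data had been seen. Of these, 4, 2, 1 and 2 were among the 7, and the other call with the leukocyte mean was AKR7A2 by A_72_P063836, lower in HS. Leaving out 1 array gave 3 to 9. The lowest, 3, came without F1 TN replicate 3, and 4 came without Creole TN replicate 1 or 6, Creole HS replicate 4 or 6, F1 TN replicate 5, Large White TN replicate 3 or 5, or Large White HS replicate 1 or 5. AKR1C4 by A_72_P759584 kept its call in all 35 of these fits and under 11 of 12 alternatives. O8060 and O8059 kept theirs in all 35 but lost them under 3 and 2 alternatives. AKR1B1 lost its call in 25 fits and under 6 alternatives, A_72_P382823 in 17 and under 5, A_72_P440641 in 13 and under 2, and O14756 in 10 and under 3. With the leukocyte mean as a covariate AKR1A1 turned to -0.064 (A_72_P272724), -0.024 (A_72_P382823), -0.10 (A_72_P502466), -0.030 (A_72_P682302) and -0.020 (O14756). AKR7A2 by O4483 turned to 0.072 when scaled to the spike-in controls, and AKR1C1 by A_72_P672532 to -0.0034 without F1 HS replicate 5 (highest 0.068, without Large White TN replicate 5). Scaling to the spike-in controls moved the median of all probes to 0.07.

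For Creole against Large White 1 probe was called with the leukocyte mean as a covariate (A_72_P502466, -0.21, limma adjusted p = 0.0365) and 0 in all 35 fits without 1 array. With the connective tissue mean A_72_P440641 turned to -0.062, A_72_P759584 to 0.018, A_72_P682302 to 0.033 and O14756 to 0.091. The interaction called 0 probes in every fit. AKR1C1 in F1 against the midpoint by A_72_P672532 ran from -0.84 (TN arrays alone) to -0.53 (HS arrays alone), and from -0.76 to -0.64 without 1 array. The causes of these shifts were not tested. No paired analysis was possible, because per the methods each pig was slaughtered at 1 temperature and the labels do not give the littermate blocks. The replicate numbers used here only name the arrays.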
